A study of Mus musculus with 6 samples.

Results

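The AP-1 transcription factor genes of the mouse were examined for sites at which chromatin accessibility differed between treatment groups of tumor M-MDSCs. They comprised 10 genes, Fos, Fosb, Fosl1, Fosl2, Jun, Junb, Jund, Batf, Batf3 and Atf3, out of 21755 protein-coding genes on chromosomes 1 to 19 and X. A peak was assigned to a gene when it overlapped the gene body or the 50 kb on either side, in mm10 coordinates with GENCODE M21 gene models. By this rule 19 of 11800 differential peaks lay at 6 of the 10 genes (Fosb, Fosl1, Jun, Jund, Batf3 and Atf3), and 4 genes (Fos, Fosl2, Junb and Batf) had 0 peaks in every list. Of all protein-coding genes, 36.0% had a peak of at least 1 list by the same rule.

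AP-1 is a dimer of basic leucine zipper proteins. Members of the Jun family pair with each other or with members of the Fos, Batf or Atf families, and the dimers bind the heptamer TGACTCA or its reverse complement TGAGTCA. Many of these genes are immediate early genes, transcribed within minutes after growth factors, cytokines, stress or microbial products activate the mitogen-activated protein kinases. In myeloid cells, AP-1 factors act with lineage factors at enhancers of inflammatory and differentiation genes.

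M-MDSCs, monocytic myeloid-derived suppressor cells gated as CD11b+ Ly-6C high Ly-6G-, were sorted from tumors that Hepa 1-6 cells, a mouse hepatoma line, had formed in the liver of wild-type C57BL/6 J females aged 6 to 8 weeks. The mice received vehicle (the Vehicle group), MS-275 (labelled MS275) or CXD101, and each group had 2 ATAC-seq libraries described as biological replicates. Both compounds inhibit HDAC1-3, class I histone deacetylases that remove acetyl groups from histone tails, and each was injected at 5 mg/kg daily for 10 days before tumors were taken on day 21 after transplant. All mice carried the same wild-type genotype and tumor line, and they had been chosen for a high share of MDSCs in blood, so each group stands for mice of that kind.

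ATAC-seq marks open DNA by the insertion of sequencing adapters. The deposited lists hold the sites at which MACS2 found more tags in the pooled libraries of a group than in those of another. The MS-275 gained list (8480 peaks) was MS-275 over vehicle, the MS-275 lost list (691 peaks) was vehicle over MS-275, and the CXD101 gained list (284 peaks) and CXD101 lost list (693 peaks) were made alike. The study's text describes larger sets of peaks for the inhibitors than these lists hold, and those sets were not analysed here. In the direct lists, 1650 peaks were higher with MS-275 than with CXD101 and 2 were higher with CXD101. The pooled inhibitor groups were each 1.14 times as deep as the vehicle group. Fold enrichment is the authors' ratio of the higher group's tags to the lower group's local level, with 1 added to each. It is taken at the summit, the position of most tags. Tag values are the higher group's tags and the lower group's local level at the summit, both at the depth of the vehicle group. With libraries pooled before calling, no spread between replicates can be given, and the p-values of MACS2 speak for these pooled libraries alone. In a sorted pool, a larger share of cells with an open site and a more open site in each cell cannot be told apart. Sites open to the same extent in all groups are not in these lists, so an absent peak does not mean closed chromatin.

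The sequences under the peaks that the results turn on are given first, read from the plus strand of mm10. They are the peaks in a gene body or the 5 kb upstream of a start, those with an AP-1 heptamer near the summit, and sites at Jun and Batf3 that several lists or an antisense transcript mark out. Peaks over 300 bases are shown as the 300 bases around the summit. Capitals mark TGACTCA or TGAGTCA, and a sequence without capitals holds neither.
Fosl1 upstream site, chr19:5433391-5433631: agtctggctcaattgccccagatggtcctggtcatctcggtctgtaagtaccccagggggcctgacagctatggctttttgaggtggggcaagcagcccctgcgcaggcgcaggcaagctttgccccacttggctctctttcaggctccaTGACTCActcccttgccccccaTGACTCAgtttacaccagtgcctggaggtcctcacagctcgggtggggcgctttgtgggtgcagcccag
Atf3 upstream site, chr1:191230637-191230873: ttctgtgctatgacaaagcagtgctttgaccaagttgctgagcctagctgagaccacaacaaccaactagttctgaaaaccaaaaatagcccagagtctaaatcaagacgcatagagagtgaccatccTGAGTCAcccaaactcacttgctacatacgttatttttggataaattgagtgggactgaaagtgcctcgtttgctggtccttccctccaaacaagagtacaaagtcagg
Atf3 intronic site, chr1:191193961-191194161: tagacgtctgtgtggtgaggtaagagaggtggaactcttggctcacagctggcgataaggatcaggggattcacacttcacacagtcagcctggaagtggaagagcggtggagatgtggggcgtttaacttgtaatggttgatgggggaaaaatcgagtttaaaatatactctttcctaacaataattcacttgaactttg
Jund upstream site, far summit, chr8:70693524-70693823: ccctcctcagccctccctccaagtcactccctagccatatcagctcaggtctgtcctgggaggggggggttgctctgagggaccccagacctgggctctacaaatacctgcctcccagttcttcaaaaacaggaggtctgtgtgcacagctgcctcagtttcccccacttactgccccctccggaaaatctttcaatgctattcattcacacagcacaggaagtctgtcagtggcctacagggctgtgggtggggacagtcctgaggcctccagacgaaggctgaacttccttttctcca
Jund upstream site, near summit, chr8:70693800-70694099: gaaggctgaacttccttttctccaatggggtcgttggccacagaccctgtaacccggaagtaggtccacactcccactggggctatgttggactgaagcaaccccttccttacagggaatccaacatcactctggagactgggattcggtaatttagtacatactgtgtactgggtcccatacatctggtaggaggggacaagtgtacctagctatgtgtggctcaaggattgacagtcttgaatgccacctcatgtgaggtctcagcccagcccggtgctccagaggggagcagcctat
Jun upstream site at a Junos start, chr4:95075766-95076065: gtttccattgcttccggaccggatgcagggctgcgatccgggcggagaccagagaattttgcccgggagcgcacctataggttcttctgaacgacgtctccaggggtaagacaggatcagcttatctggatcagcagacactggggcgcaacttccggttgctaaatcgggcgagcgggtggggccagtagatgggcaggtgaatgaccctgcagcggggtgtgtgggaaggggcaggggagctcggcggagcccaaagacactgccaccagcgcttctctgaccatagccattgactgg
Jun upstream site higher with MS-275 than with CXD101, chr4:95082646-95082883: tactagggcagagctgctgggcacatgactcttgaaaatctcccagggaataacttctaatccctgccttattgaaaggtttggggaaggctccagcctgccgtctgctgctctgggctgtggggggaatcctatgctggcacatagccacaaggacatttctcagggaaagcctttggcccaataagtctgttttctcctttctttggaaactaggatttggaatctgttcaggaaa
Batf3 upstream site, chr1:191072939-191073166: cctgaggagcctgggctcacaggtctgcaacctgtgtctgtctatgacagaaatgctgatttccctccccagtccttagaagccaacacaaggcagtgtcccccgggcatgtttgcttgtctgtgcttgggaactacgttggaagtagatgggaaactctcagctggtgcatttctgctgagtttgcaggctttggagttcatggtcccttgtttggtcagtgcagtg

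Most of the gained peaks lay in the windows of Jun family genes. Of the 12 MS-275 gained peaks at AP-1 genes, 7 lay at Jun, 3 at Jund, 1 at Fosb and 1 at Fosl1, while Junb had 0. Thus 4 of the 10 genes had a gained peak, beside 28.5% of all protein-coding genes under the same rule. The map of peaks around the 10 genes shows where each lay relative to its gene.

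**Figure D1:**
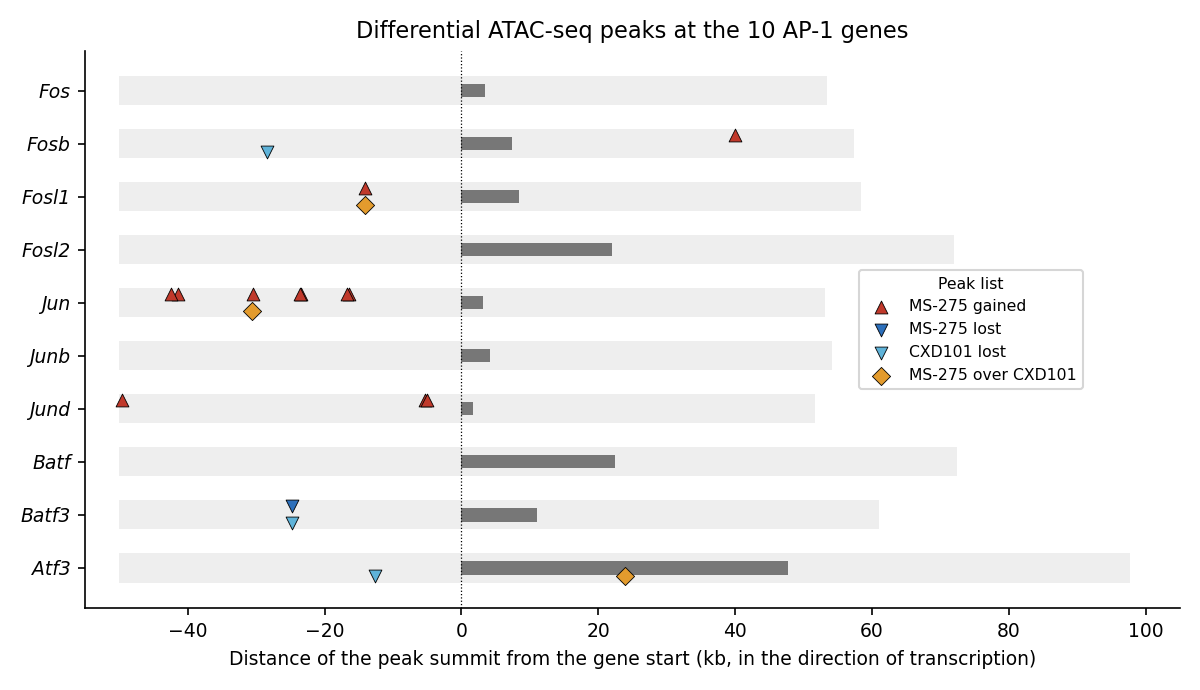
Positions of the differential peaks around the AP-1 genes. The horizontal axis is the distance of the summit from the gene start in kb, negative upstream, dark bars are gene bodies, pale bars the gene with 50 kb on either side, and symbols the peak lists. The 7 gained peaks of Jun lie upstream of the gene, and the rows of Fos, Fosl2, Junb and Batf are empty.

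Jun encodes c-Jun, a transactivating AP-1 subunit that can homodimerize and is a substrate of the c-Jun N-terminal kinases. The gene (ENSMUSG00000052684.4, chr4:95049034-95052222, minus strand) had 7 gained peaks and 0 lost peaks. All 7 were upstream, between 16.4 and 42.5 kb from the gene start, with fold enrichments of 1.93 to 3.82. Each had Jun as the nearest protein-coding start, and no other protein-coding gene overlapped the window.

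The gained peak with the highest significance at Jun was chr4:95075766-95076065, 23.6 kb upstream, the sequence named above for its Junos start. With 57.7 MS-275 tags (95% Poisson interval 44.6 to 73.4) and a vehicle level of 17.6, it reached a fold enrichment of 3.16. Its −log10 p was 13.6 and its −log10 q 9.83, rank 2593 of 8480 in the list. Intervals of this kind cover counting error only, since PCR duplicates and differences between mice are not in them.

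The largest fold enrichment at Jun was nearer to the gene. A single interval, chr4:95068527-95069027, held summits 16.4 and 16.7 kb upstream. At 16.4 kb there were 34.1 tags with MS-275 over 8.20 with vehicle, a fold enrichment of 3.82. At 16.7 kb there were 28.9 tags over 9.0, a fold enrichment of 2.99. The vehicle levels at these summits were the lowest of all 12 gained peaks, so the large folds stood on few tags.

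The other 4 gained peaks of Jun ranged widely in tags. At 23.4 kb upstream (chr4:95075336-95075613), 47.2 tags with MS-275 over 24.0 with vehicle gave the smallest fold enrichment, 1.93. The peak 30.5 kb upstream (chr4:95082614-95082984) had 44.6 tags over 15.0, a fold enrichment of 2.85. The farthest pair were alike in fold but not in tags. They had 31.5 tags over 10.5 at 41.4 kb (chr4:95093556-95093787) and 71.7 tags over 26.6 at 42.5 kb (chr4:95094550-95094750), with fold enrichments of 2.83 and 2.63.

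These peaks also lay inside Junos, a long noncoding RNA gene that runs away from Jun on the opposite strand (ENSMUSG00000087366.7, chr4:95051534-95167318, 116 kb, 8 annotated transcripts). Several annotated Junos transcript starts were close to gained summits. The summit of chr4:95075766-95076065 was 44 bp inside Junos-206, whose start the peak covered. The summit of chr4:95075336-95075613 was 61 bp before the start of Junos-208, and that of chr4:95093556-95093787 was 145 bp past the start of Junos-205. Peaks within Junos can therefore not be assigned to either gene by position. Junos held 12 MS-275 gained peaks in all, 5 of them beyond the 50 kb limit, and 0 peaks of either lost list.

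Just outside the limit, the next gained peak was 54.8 kb from Jun (chr4:95107071-95107331), with 35.8 tags over 11.2 and a fold enrichment of 3.02. The remaining 4 lay 104 to 111 kb from the Jun start with fold enrichments of 2.32 to 2.55. The plot of fold enrichment along Junos gives all of them.

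**Figure D2:**
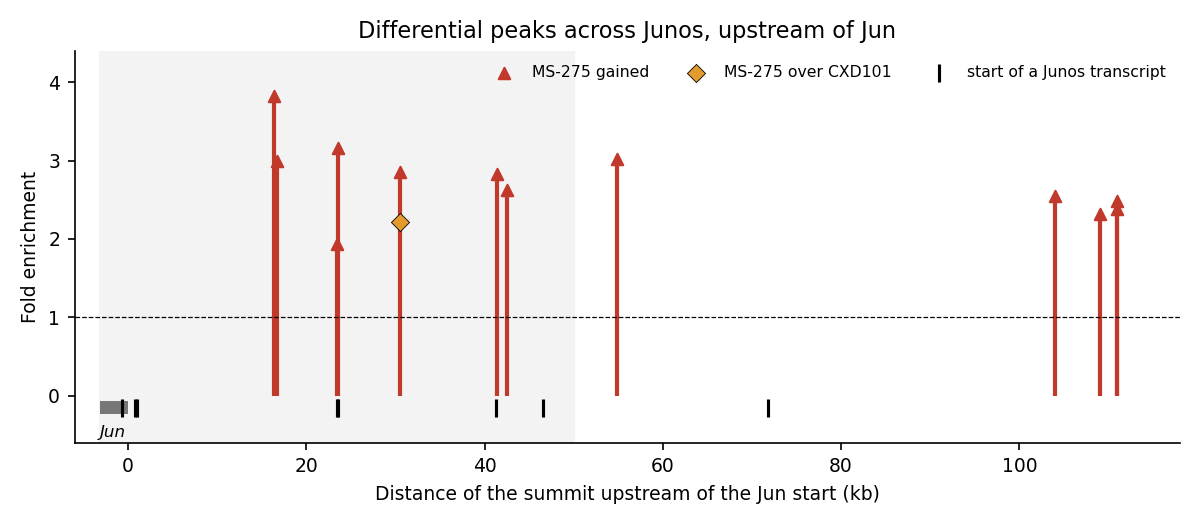
Fold enrichment of each differential peak across Junos against its distance upstream of the Jun start in kb. Triangles are MS-275 gained peaks, the diamond is the MS-275 over CXD101 peak, ticks below 0 are annotated Junos transcript starts, the dark bar is Jun, the shaded area is its 50 kb window and the dashed line is no difference. Gained peaks stand between 1.93 and 3.82, in clusters near 16, 23, 41 and 111 kb and at single sites between.

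The count at Jun was set beside that of all genes. As many gained peaks as at Jun, 7 or more, were found at 338 genes (1.55% of all protein-coding genes), and as many as at Jund, 3 or more, at 1989 genes (9.14%). The 10 windows were not long, with a median of 108 kb beside 117 kb for all protein-coding genes. The median fold enrichment of the 12 gained peaks at AP-1 genes was 2.83, and that of the whole list was 2.88.

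**Figure D3:**
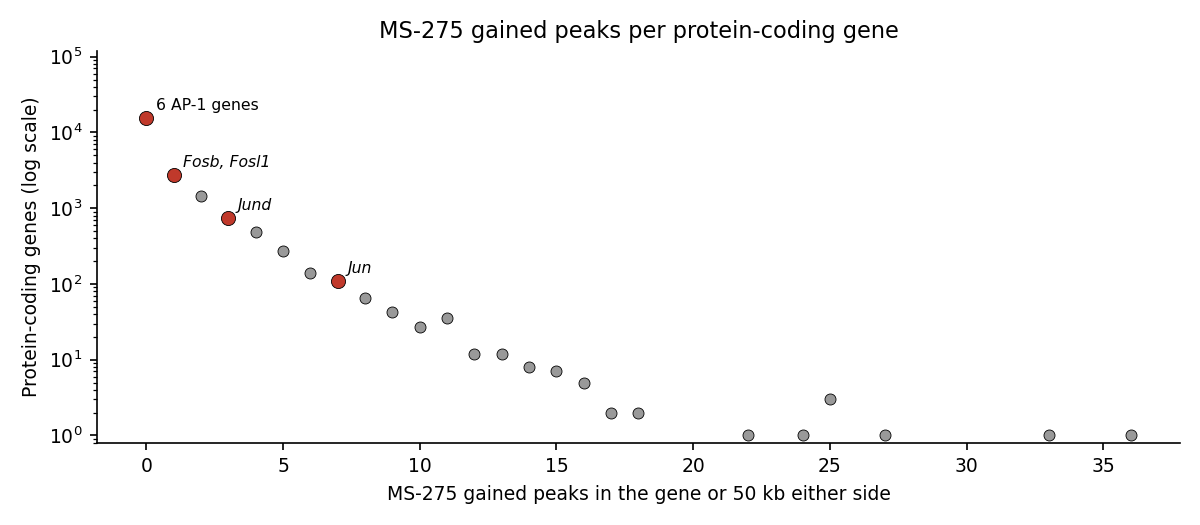
Number of protein-coding genes (log axis) by their number of MS-275 gained peaks in the gene or 50 kb on either side. Red points are the values at which AP-1 genes lie: 0 for 6 of them, 1 for Fosb and Fosl1, 3 for Jund and 7 for Jun.

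Jund encodes JunD, which many resting cells express and which restrains proliferation in several settings. The gene (ENSMUSG00000071076.6, chr8:70698949-70700616, plus strand) had 3 gained peaks and none in the other lists. A single intergenic interval, chr8:70693561-70694046, carried 2 of them, with Jund as the nearest gene. Its end reached 98 bp into the 5 kb upstream of the Jund start, and no other peak touched that stretch in any of the 10 genes.

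The far summit, 5276 bp upstream of Jund, had 45.5 MS-275 tags (34.0 to 59.6) over a vehicle level of 15.0, a fold enrichment of 2.90 with a −log10 q of 6.63. The near summit, 5000 bp upstream, had 52.5 tags (40.0 to 67.5) over 22.0, a fold enrichment of 2.32 with a −log10 q of 4.73. The near summit had more tags in both groups, and the tag intervals of both overlapped.

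The remaining Jund peak was only just inside the window, 49.6 kb upstream at chr8:70649234-70649480. It had 34.1 tags over 11.9, a fold enrichment of 2.71. It lay in an untranslated exon of Pgpep1, whose start was the nearest, 11.1 kb away, so its assignment to Jund rests on the window alone.

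Junb encodes JunB, an AP-1 subunit with a role in myeloid differentiation. Its window (gene ENSMUSG00000052837.6, chr8:84974484-84978718, minus strand) held 9 other protein-coding genes and 0 peaks of any list. The nearest gained peak was 373 kb away, by Ier2, with a fold enrichment of 2.39.

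The Fos family had fewer peaks, 4 in all. Fos, the prototype immediate early gene (ENSMUSG00000021250.13, chr12:85473890-85477273, plus strand), had none, and the nearest was an MS-275 gained peak 84.6 kb upstream by Tmed10, with a fold enrichment of 3.24. Fosl2, which encodes Fra-2 (ENSMUSG00000029135.10, chr5:32135801-32157842, plus strand), had none within 253 kb. At that distance stood an MS-275 gained peak by Ppp1cb with a fold enrichment of 4.85. The windows of Fos and Fosl2 held no other protein-coding gene, in contrast to those of Fosb and Fosl1.

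Fosb encodes FosB, a partner of the Jun proteins that is induced with Fos. The gene (ENSMUSG00000003545.3, chr7:19302696-19310051, minus strand) had a site higher with MS-275 and another lower with CXD101. The gained peak, chr7:19269935-19270168, lay 40.0 kb downstream of the start. It had 90.1 MS-275 tags (73.5 to 109) over a vehicle level of 31.2, a fold enrichment of 2.83.

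Its −log10 p of 17.5 (−log10 q 13.3) was the highest of the 12 gained peaks at AP-1 genes, rank 1337 of 8480. It was in an intron of Vasp, 1779 bp from the start of that gene, which encodes a regulator of actin assembly. The CXD101 lost peak, chr7:19338370-19338592, lay 28.4 kb upstream in an intron of D830036C21Rik, with Ercc1 as the nearest protein-coding start. It had 63.0 vehicle tags (48.4 to 80.6) over a CXD101 level of 31.0, a fold enrichment of 2.0. The window of Fosb held 7 other protein-coding genes, and both peaks were nearer to other starts than to that of Fosb.

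Fosl1 encodes Fra-1, a Fos protein without a strong transactivation domain. The gene (ENSMUSG00000024912.6, chr19:5447547-5455946, plus strand) had an intergenic site 14.0 kb upstream that was in both the MS-275 gained and the MS-275 over CXD101 lists. In the gained list (chr19:5433391-5433631) it had 72.6 MS-275 tags (57.8 to 90.0) over a vehicle level of 28.2, a fold enrichment of 2.52. In the direct list (chr19:5433418-5433626), with its summit 8 bp away, it had 67.3 MS-275 tags over a CXD101 level of 33.4, a fold enrichment of 1.99. MS-275 was thus the higher group in both comparisons, which share the MS-275 libraries. The nearest protein-coding start was that of AI837181, 8.36 kb away, and 11 other protein-coding genes overlapped the window.

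This was also the gained peak that held AP-1 heptamers. The sequence of the Fosl1 upstream site has TGACTCA at 35 and 57 bp past the gained summit. Within 100 bp of the summit, 1 of the 12 gained peaks at AP-1 genes held TGACTCA or TGAGTCA, and 2.79% of the MS-275 gained list did. Searching either heptamer covers both strands, since each is the reverse complement of the other.

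Batf and Batf3 encode small AP-1 proteins that lack a transactivation domain and pair with Jun proteins and interferon regulatory factors. Batf3 is required for a lineage of dendritic cells. Batf (ENSMUSG00000034266.6, chr12:85686669-85709087, plus strand) had 0 peaks, and the nearest was a CXD101 lost peak 83.6 kb away in Jdp2.

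Batf3 (ENSMUSG00000026630.9, chr1:191097847-191108945, plus strand) had a single site, 24.7 kb upstream, that was lower with both inhibitors than with vehicle. In the MS-275 lost list (chr1:191072939-191073166) it had 88.0 vehicle tags (70.6 to 108) over an MS-275 level of 43.9, a fold enrichment of 1.98 with a −log10 q of 4.87. In the CXD101 lost list (chr1:191072933-191073158) it had 89.0 vehicle tags (71.5 to 110) over a CXD101 level of 45.7, a fold enrichment of 1.93 with a −log10 q of 4.61. The summits were 4 bp apart, and the levels of the inhibitor groups were nearly alike. Both comparisons use the same vehicle libraries, so they are not independent of each other.

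The Batf3 site lay in an intron of Nsl1, a kinetochore gene, 10.1 kb from its start. Only Batf3 had an MS-275 lost peak, 1 of 10 genes beside 5.10% of all protein-coding genes. For CXD101 lost peaks it was 3 of 10, Fosb, Batf3 and Atf3, beside 6.34%. With 10 genes these shares are counts to be read next to each other, and no test was made of them.

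Atf3 encodes a stress-induced factor that dampens the transcription of inflammatory genes. The gene (ENSMUSG00000026628.13, chr1:191170296-191218039, minus strand, 47.7 kb) had a CXD101 lost peak upstream and a peak of the direct list inside an intron. The CXD101 lost peak, chr1:191230637-191230873, was intergenic and 12.7 kb upstream, with Atf3 as the nearest start. It had 100 vehicle tags (81.4 to 122) over a CXD101 level of 66, a fold enrichment of 1.51. Its −log10 q of 1.44 placed it at rank 673 of 693, close to the end of the list, so it was the weakest call among the 19. This Atf3 upstream site held TGAGTCA 32 bp past the summit, the only heptamer within 100 bp of a summit in the 3 CXD101 lost peaks at AP-1 genes, while 14.4% of that list held a heptamer.

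The intronic Atf3 peak, chr1:191193961-191194161, was the only differential peak in the body of an AP-1 gene. It lay 24.0 kb downstream of the gene start and 10.7 kb upstream of the start of the shorter transcript Atf3-201. It had 57.7 MS-275 tags (44.6 to 73.4) over a CXD101 level of 28.1, a fold enrichment of 2.02 with a −log10 q of 3.91. It was in neither the MS-275 gained nor the CXD101 lost list.

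None of the 19 peaks overlapped the stretch from 250 bp before to 50 bp after the start of an AP-1 gene. For MS-275 gained peaks, 1.92% of all protein-coding genes had a peak there. By the position of the summit, 11 of the 19 were intronic, 5 intergenic and 3 exonic, and 12 had the AP-1 gene as the nearest protein-coding start. Apart from the Atf3 intron, these introns and exons were those of Junos, Vasp, Nsl1, D830036C21Rik and Pgpep1. Counting the gene body and 5 kb upstream alone, Jund had gained peaks, 1 of 10 genes beside 11.7% of all protein-coding genes, and Atf3 had a direct peak, 1 of 10 beside 3.60%. No AP-1 gene had an MS-275 lost, CXD101 gained, CXD101 lost or CXD101 over MS-275 peak there, beside 1.68%, 0.625%, 1.89% and 0.00919% of all protein-coding genes.

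**Figure D4:**
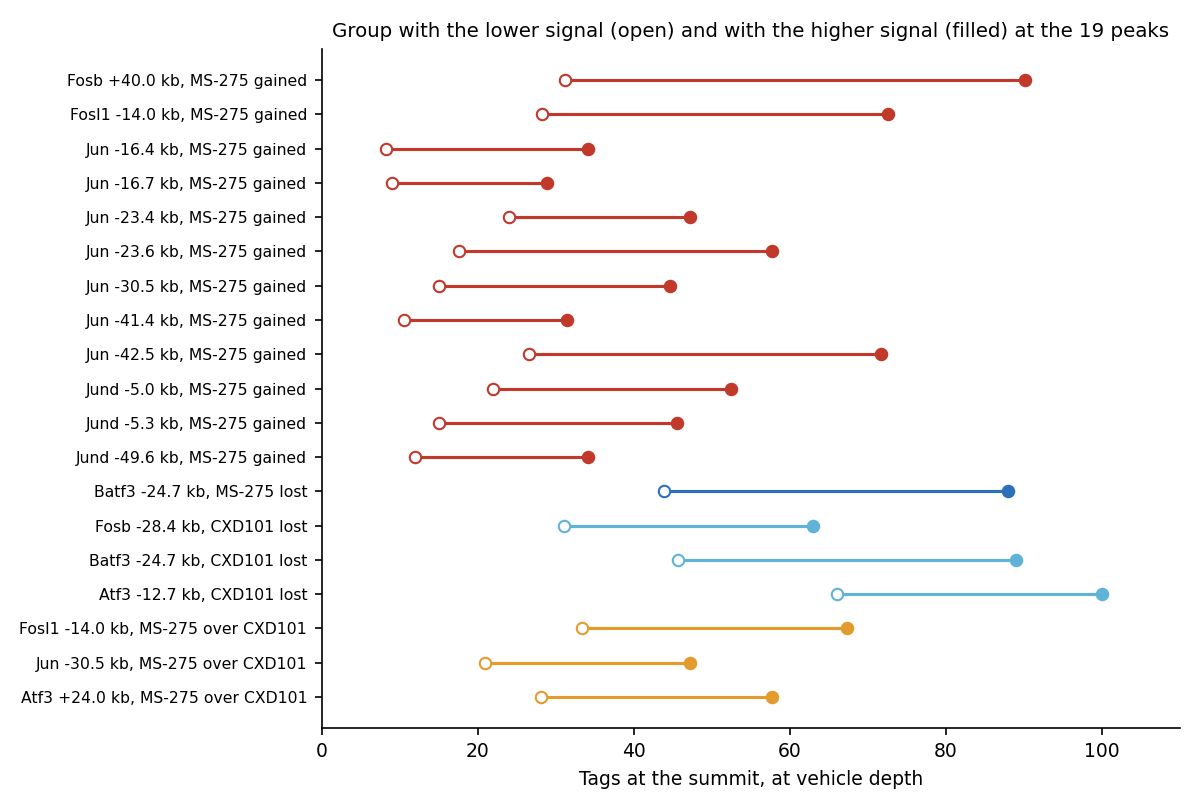
Tags at the summit of each of the 19 peaks, at the depth of the vehicle group. Filled points are the group with the higher signal and open points the local level in the group with the lower signal, with distance from the gene start and the peak list at the left and a color for each list. The Atf3 CXD101 lost peak has the most tags, 100, and the narrowest relative gap, and the Jun peak at 16.4 kb has the widest.

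The inhibitors were also compared with each other at these genes. Peaks higher with MS-275 than with CXD101 lay at 3 of the 10 genes, Fosl1, Jun and Atf3, beside 11.0% of all protein-coding genes. None of the 10 had a peak higher with CXD101, beside 0.0184%, in a list of 2 peaks. The compounds were given at the same dose in mg/kg and for the same time, but the study lists different inhibitory concentrations of them for HDAC1-3. Their directly compared fold enrichments at AP-1 genes were 1.99, 2.21 and 2.02.

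At Jun the direct peak was 30.5 kb upstream (chr4:95082646-95082883), 54 bp from the summit of a gained peak. It had 47.2 MS-275 tags (35.5 to 61.6) over a CXD101 level of 20.9, a fold enrichment of 2.21 with a −log10 q of 4.00. The same site had a vehicle level of 15.0 in the gained list. The other 6 gained peaks of Jun had no overlapping direct peak.

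CXD101 gained peaks lay at 0 of the 10 genes, beside 1.56% of all protein-coding genes. The depth and the cutoff of the list together set what could have been called. The weakest MACS2 −log10 p was 4.50 in the CXD101 gained list and 3.79 in the MS-275 gained list. At the vehicle levels of the 12 MS-275 gained sites, CXD101 would have needed a fold enrichment of 1.78 (Fosb) to 2.59 (Jun, 16.4 kb) to reach the weakest p-value of its list. At the Fosl1 site this was 52.8 tags, and the CXD101 level in the direct list was 33.4. At the Jun site 30.5 kb upstream it was 33.4 tags, and the CXD101 level was 20.9. At the other 10 gained sites a CXD101 value is not in the lists, and a gain below those folds was not detectable at this depth and cutoff. The Jun site at 23.4 kb needed 1.90, close to the 1.93 seen with MS-275, so a gain of the same size there would have passed only narrowly, at 47.2 tags where 46.6 were needed.

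Neither the lost nor the direct peaks at Fosb, Jun, Batf3 and the Atf3 intron held a heptamer within 100 bp of the summit. In the whole lists, 18.1% of MS-275 lost peaks and 3.94% of MS-275 over CXD101 peaks did, and the Fosl1 site was the only direct peak at an AP-1 gene to do so. The cAMP response element (TGAC followed by GTCA), which Atf and Jun dimers bind, was within 100 bp of no summit at an AP-1 gene and of 0.165% of MS-275 gained summits. The 201 bp around the gained summits at AP-1 genes had a median GC content of 53.2% (46.8 to 65.7%), and the list median was 49.8%. The GC-richest were those of Fosb and Fosl1, at 65.7% and 60.7%, and the Jun site at Junos-206 held 14 CpG, the most of the 19.

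Other genes of the pathway were counted from lists of 14 dimer partners or related basic leucine zipper factors and 18 upstream kinases, phosphatases and factors. Among the partners, 5 of 14 had an MS-275 gained peak (Bach1, Bach2, Jdp2, Maf and Nfe2) and 0 an MS-275 lost peak. A CXD101 lost peak lay at 1 partner (Jdp2) and a direct peak at 1 (Bach1). Among the upstream genes, 9 of 18 had a gained peak, 3 a CXD101 lost peak (Mapk9, Mapk14 and Srf) and 3 a direct peak (Dusp1, Dusp2 and Map3k1). Neither list had a CXD101 gained peak. These counts stand beside the same backgrounds of 28.5%, 5.10%, 6.34%, 11.0% and 1.56%.

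Nfe2, a factor of erythroid and megakaryocyte genes, had a gained peak 2.02 kb upstream with 88.3 MS-275 tags over 23.0, a fold enrichment of 3.72. Srf, which binds serum response elements such as that of Fos, had an interval 1.70 to 2.02 kb upstream with fold enrichments of 2.70 and 3.30. Srf also had a lost site 18.4 kb upstream, with fold enrichments of 4.68 over MS-275 and 4.26 over CXD101 and 31.0 vehicle tags in both. The levels of the lower groups were only 5.84 with MS-275 and 6.51 with CXD101, so these folds stood on few tags.

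Of the 4 listed phosphatases, which switch off the kinases upstream of AP-1, Dusp4 and Dusp10 had gained peaks in the gene or 5 kb upstream, beside 11.7% of all protein-coding genes. Dusp4 had an interval with summits 0.561 and 0.859 kb downstream of its start and fold enrichments of 1.95 and 2.07. Dusp10 had 4 intronic gained peaks 49.7 to 53.6 kb downstream of its start, with fold enrichments of 2.90 to 4.54. Their nearest protein-coding start was that of 1700056E22Rik. Of the kinases, Map3k1 had an intronic site with 119 tags with MS-275 over 54.6 with vehicle (fold enrichment 2.16) and over a CXD101 level of 61.6 (1.92). Map2k6 had an intronic gained peak with a fold enrichment of 3.14.

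Of the partners, Maf had an exonic gained peak 1.05 kb downstream of its start with a fold enrichment of 2.50. Bach2 had 3 intronic gained peaks, with fold enrichments of 1.57 to 4.19, of which the weakest was rank 8468 of 8480 in the list. Jdp2, which encodes a repressor that pairs with Jun, had an intronic CXD101 lost peak with 33.0 vehicle tags over 15.5, a fold enrichment of 2.06. It was rank 669 of 693, close to the end of its list.

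The lists give differences and not levels, so the sorted cell type could not be checked by how open its marker genes were. Of 8 monocyte markers, 5 had an MS-275 gained peak within 50 kb, and 2 (Itgam and Cx3cr1) had a peak in each lost list. Of the markers of other cells, 4 of 8 for neutrophils, 4 of 6 for macrophages, 4 of 6 for T cells, 1 of 5 for B cells, 2 of 4 for NK cells and 2 of 5 for hepatocytes had a gained peak, beside the 28.5% of all protein-coding genes. A CXD101 gained peak lay at 1 of the 6 macrophage markers (Vsig4), beside 1.56%. Vsig4 also had the gained peak ranked 1 of 8480 by p-value, with a fold enrichment of 10.5. Direct peaks lay at 3 of 8 monocyte, 1 of 8 neutrophil, 2 of 6 macrophage, 2 of 6 T cell and 1 of 5 hepatocyte markers, beside 11.0%, and at none of the B cell or NK cell markers. Peaks of the MS-275 lost and CXD101 lost lists lay at 3 and 4 of the 6 T cell markers, among them Cd3d, Cd3e and Cd3g, which are neighbours and share peaks. Of the neutrophil markers, Ltf had an MS-275 lost peak. The gained and direct peaks of the neutrophil marker Ly6g also lay within 50 kb of the monocyte marker Ly6c2, so the counts of these cell types share sites. The backgrounds of both lost lists were 5.10% and 6.34%. The part of other cell types in the AP-1 gene peaks, including the lost peaks at Batf3, Fosb and Atf3, was not tested.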

How the data were processed

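M-MDSCs from 3 groups of 2 ATAC-seq libraries were compared through 6 deposited peak lists. Per the methods and labels, the authors aligned reads with Bowtie2 to mm10 and ran MACS2 2.2.7.1 without a model and with a shift of 0, so summits were not moved to the transposase cut site. They pooled the libraries of a group before calling and gave a group as treatment and another as control. The deposited fold enrichment is a linear ratio of treated pileup to local control level, with a pseudocount of 1 added to each. The significance was deposited as −log10 of a Poisson p-value and of the q-value. No deposited q-value exceeded 0.05, whereas the methods give a cutoff on p. Reads per library were not used here.

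The 10 genes, the pathway and marker lists and the rules were chosen with earlier results of these data known. Named genes were the 10, with values for every peak of theirs, and pathway genes with a peak in the gene or 5 kb upstream, of which examples are given. Other pathway genes are named in the counts alone, except the lost site of Srf 18.4 kb upstream, which was added after its values were seen. Of the pathway list, 1 gene is not reported here. Peaks were assigned by an overlap of at least 1 base. Tags and control levels were solved from fold and p-value with the MACS2 pseudocount of 1. MACS2 takes the largest of a set of local averages as its control level, which bounds the true level from above. All 11800 peaks gave a whole number of tags within 0.001 after scaling (41 with a second solution, none at AP-1 genes), and on simulated data at least 99.8% of 1000 peaks were recovered at each of 4 scaling factors. MS-275 over CXD101 values were converted to vehicle depth. Tag intervals are exact 95% Poisson intervals. No test was computed here, since no value per library was used, and the MACS2 calls are the authors' test. Gene models were GENCODE M21, and sequence was read from the RefSeq copy of the mm10 assembly. Alternatives were other windows, stricter q-values, a fold enrichment of at least 2, intervals in place of summits, other motif windows and a pseudocount of 0. A promoter rule based on every annotated transcript start was added after seeing the data. Python 3.11.15, pandas 2.3.3, numpy 2.4.6, scipy 1.17.1 and pysam 0.24.0 were used.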

Additional observations from a re-analysis of the deposited data

Results flagged for a closer look

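At 3 sites the inhibitors themselves differed, by the authors' MACS2 test of the pooled MS-275 libraries against the pooled CXD101 libraries. These were the Fosl1 site 14.0 kb upstream with a fold enrichment of 1.99 of MS-275 over CXD101, the Jun site 30.5 kb upstream with 2.21, and the Atf3 intronic site 24.0 kb downstream of the gene start with 2.02. At Fosl1 and Jun the site was also an MS-275 gained peak, and at Atf3 no list against vehicle held it. Outliers among libraries could not be looked for, since no value per library was used.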

How the results depend on the processing

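Of 162 recomputed values, 132 stayed within 1.5 times of the reported value (for median tags, within its counting interval), and 30 moved further. No paired analysis was possible because MACS2 was run on merged libraries and gave no value per replicate, so no library could be left out either. Most of the moves followed the window. With 25 kb on either side, the gained peaks at AP-1 genes numbered 7, the background fell to 3.25% (MS-275 lost), 4.10% (CXD101 lost) and 7.28% (direct), and 2 pathway genes had a direct peak in place of 4. With 100 kb, 2 AP-1 genes had an MS-275 lost peak and 5 a direct peak, but these peaks numbered 1 and 4. Batf3 and Atf3 are neighbours and shared a lost and a direct peak at that width. The background rose to 8.80% (MS-275 lost), 2.62% (CXD101 gained), 10.6% (CXD101 lost) and 17.6% (direct). With the gene body and 5 kb upstream alone, 2 gained peaks at 1 gene, 0 MS-275 lost, 0 CXD101 lost and 1 direct peak at 1 gene were left, with backgrounds of 11.7%, 1.68%, 1.89% and 3.60%, of 0.625% for CXD101 gained and of 0.00919% for CXD101 over MS-275 peaks. The AP-1 genes with a peak thus went from 4 of 10 to 1 of 10 for MS-275 gained peaks. For MS-275 lost peaks they went from 1 of 10 to 0, and for CXD101 lost peaks from 3 of 10 to 0. In a set of 10 genes, counts of 1 or 0 cannot be placed above or below the backgrounds of this narrow window. With 2 kb on either side of the start or the gene body, 1 of the 2 genes with such a peak was left, Atf3. A fold enrichment of at least 2 left 0 MS-275 lost peaks and genes and 1 CXD101 lost peak at 1 gene. A q-value under 0.01 removed the Atf3 CXD101 lost peak and left 2 genes with one. Without the pseudocount, 0 of the 12 gained peaks gave a whole number of tags, against 12 of 12 with it. The main limits are the pooled libraries, the depth behind peaks of 28.9 to 100 tags, the upper estimate of the lower group's level, and the assignment by distance, which cannot name a peak's target gene.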
